A study of Saccharomyces cerevisiae with 19 samples.

Results

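The chromosomal copies of SIR3 (YLR442C, chromosome 12) and SIR2 (YDL042C, chromosome 4) of Saccharomyces cerevisiae are described here as targets of Sir3 binding. The microarray probes were those inside both coding regions and the 5 kb on either side of each, which gave 91 of 41480 chromosomal probes. The SIR3 locus held 48 probes, with 18 upstream of the start codon, 11 over the coding region of 2937 bp and 19 beyond the stop codon. The SIR2 locus held 43 probes, with 18 upstream, 7 over the coding region of 1689 bp and 18 beyond the stop codon. Both genes lie inside their chromosomes, SIR3 at 55.6 kb and SIR2 at 377 kb from the nearer end. Probe positions along each gene are given in bp from the start codon in the unmodified genome, negative upstream and positive into the gene.

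Sir2, Sir3 and Sir4 form the complex that silences the yeast mating-type cassettes and telomere-proximal chromatin. Sir2 is an NAD-dependent histone deacetylase that removes acetyl groups from histone tails, Sir3 binds the deacetylated nucleosomes and Sir4 links both to the proteins that recruit them. Repeated rounds of deacetylation and Sir3 binding let the complex extend along chromatin. Dot1 methylates histone H3 in the nucleosome core, a mark that weakens Sir3 binding, and nicotinamide (NAM) inhibits Sir2.

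Sir3-bound chromatin was precipitated with a polyclonal antibody against Sir3, and the recovered DNA (Cy5) was hybridised with whole cell extract DNA (Cy3) on 19 arrays in 11 groups, 8 of 2 arrays and 3 of 1 array. The strains were built to raise SIR3 or SIR2 expression by putting another promoter in front of the chromosomal gene, so that the manipulated genes were themselves on the array. pADH-SIR3 (yAT2627), pTEF-SIR3 (yAT2629) and pGPD-SIR3 yAT2554 (1 array) carried the ADH, TEF or GPD promoter as sir3::pADH-SIR3(NAT), sir3::pTEF-SIR3(NAT) or sir3::GPD-Sir3(NAT), and all of them had ade2-1::ADE2, the deletion hmlΔ::HPH and rap1::RAP1-GFP(LEU2). pGPD-SIR3 yAT1254 carried sir3::GPD-SIR3(NAT) and pGPD-SIR3-A2Q (yAT1256) carried sir3::GPD-sir3-A2Q(NAT), a point mutant of Sir3 at the residue after the initiator methionine. These last strains otherwise had the wild-type (WT, yAT191) genotype, which is ade2-1::ADE2 with the telomeric reporter adh4::URA3-4xUASG-(C1-3A)n, with PPR1 replaced by HIS3 and with rap1::GFP-RAP1(LEU2). pGPD-SIR3 yAT2476 (1 array) carried sir3::GPD-SIR3(NAT) with rap1::GFP-RAP1(LEU2) as its only other listed change. pGPD-SIR2 (yAT1667, 1 array) carried sir2::GPD-SIR2(KanMX), and pGPD-SIR2 pGPD-SIR3 (yAT1668) carried this allele together with sir3::GPD-SIR3(NAT). Both of these also had rap1::RAP1-GFP(LEU2) and RDN1::ADE2, so the replaced SIR2 promoter and the ADE2 insertion in the ribosomal DNA cannot be told apart. Cells of these 9 groups were in exponential growth in rich medium. The last groups, NAM-release pGPD-SIR3 (yAT1254) and NAM-release dot1 pGPD-SIR3 (yAT3183, which adds dot1::KANMx), were taken 8 h after a shift from 5 mM NAM to fresh rich medium. Every group in which SIR3 was expressed from GPD, TEF or ADH carries the NAT cassette next to SIR3, and every strain carries a tagged RAP1.

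Between 97.0% and 99.5% of the probes were measured on each array, and 36515 (88.0%) were measured on all 19. The number of arrays, 1 or 2 per group, limits the precision. Levels below are log2 ratios of precipitated over whole cell extract DNA with each array's median set to 0, and a gene's level is the mean of its probes lying at least 100 bp inside the coding region, 10 for SIR3 and 5 for SIR2. Over the 4065 genes measured this way, replicate arrays correlated least in WT (Pearson's r = 0.693 across genes) and most in NAM-release dot1 pGPD-SIR3 (0.985). The spread of probes over 50 kb from an end (scaled median absolute deviation) was 0.540 and 0.552 on the NAM-release dot1 arrays, against 0.268 to 0.392 on the other arrays. No label says that replicates came from separate cultures, so p-values measure only the spread between arrays, which may be technical. Comparisons with WT all share its 2 arrays, and groups of 1 array are assumed to vary like the others. WT and pGPD-SIR3 yAT1254 arrays all came in the first deposit of 12 arrays and both NAM-release groups in the later one of 7, so condition and deposit cannot be told apart there. Within the first deposit pTEF-SIR3 was 3.08 and pGPD-SIR2 pGPD-SIR3 2.58 above WT over SIR3, and within 1 slide pGPD-SIR3 yAT1254 was 3.52 above WT, with 1 array a side for the slide.

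Sir3 signal over the SIR3 gene was high in nearly every strain in which SIR3 had a foreign promoter. The level was 0.96 and 0.88 on the pADH-SIR3 arrays, 3.32 on both pTEF-SIR3 arrays and 2.62 on the pGPD-SIR3 yAT2554 array, against 0.36 and 0.14 on the WT arrays. It was 3.88 and 4.06 in pGPD-SIR3 yAT1254 and 2.94 in pGPD-SIR3 yAT2476. The exception among the GPD strains was pGPD-SIR3-A2Q, at 0.35 and 0.74, which overlapped WT. The pGPD-SIR2 pGPD-SIR3 arrays gave 2.82 and 2.74 and the pGPD-SIR2 array, whose SIR3 promoter is native, gave 0.20. The NAM-release groups gave 3.73 and 4.25 with DOT1 and 2.72 and 3.02 without it. Every array of a strain with unmutated SIR3 behind a foreign promoter lay above both WT arrays.

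**Figure D1:**
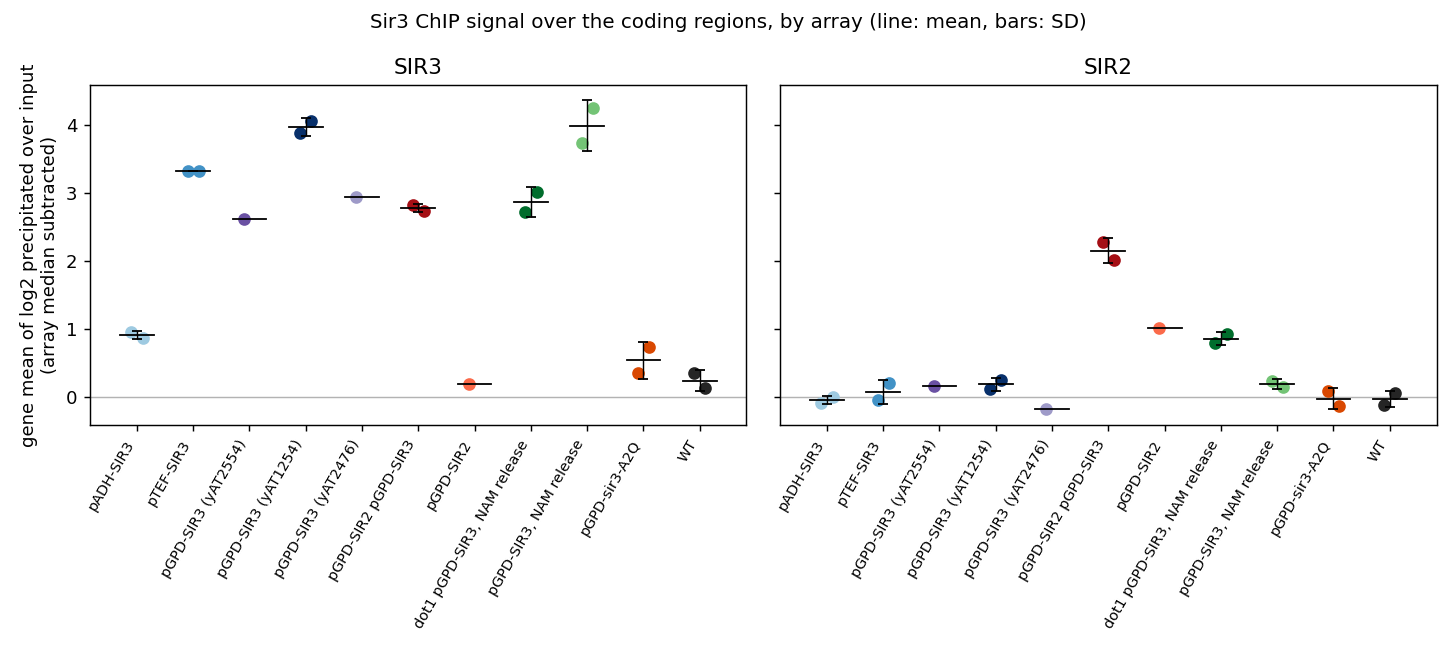
Mean log2 ratio over the SIR3 and SIR2 genes on every array (points) with the group mean (line) and SD (bars, groups of 2 arrays). Over SIR3 the strains with a GPD or TEF promoter at SIR3 lie above 2.6 except pGPD-SIR3-A2Q; over SIR2 the pGPD-SIR2 pGPD-SIR3, pGPD-SIR2 and NAM-release dot1 arrays lie highest.

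The first question was whether Sir3 signal over SIR3 followed the promoter in front of it. In pTEF-SIR3 it was 3.07 higher than in WT on the log2 scale (SE 0.17, limma adjusted p = 7.53e-07), an 8.42-fold higher ratio, where 8.66% of all genes were called in that comparison. In pGPD-SIR3 yAT1254 it was 3.72 higher (13.2-fold, limma adjusted p = 1.1e-07, 7.38% of genes called). The pADH-SIR3 difference of 0.67 (SE 0.17) did not pass the threshold of 0.05 (limma adjusted p = 0.103, 0.861% of genes called), although both pADH-SIR3 arrays lay above both WT arrays. Without WT replicate 1 it was 0.78 and passed (adjusted p = 0.0426). pTEF-SIR3 exceeded pADH-SIR3, which has the same background, by 2.41 (limma adjusted p = 9.46e-06, 3.67% of genes called). With quantile normalization, which gives every array the same distribution, that difference was 0.715 and did not pass (adjusted p = 0.469).

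Within the strongest promoters the order could not be settled. pGPD-SIR3 yAT2554, the only GPD strain that shares the HML deletion with pTEF-SIR3, was 0.71 below pTEF-SIR3 (95% interval -1.15 to -0.26). That difference did not pass after adjustment (limma adjusted p = 0.999, where 0 genes were called and 50, or 1.23%, had an unadjusted p under 0.05). pGPD-SIR3 yAT1254 was 0.65 above pTEF-SIR3 (95% interval 0.28 to 1.01), again without passing (limma adjusted p = 0.104, 0.467% of genes called). Against WT, yAT2554 was 2.37 higher and yAT2476 was 2.69 higher (limma adjusted p = 5.43e-05 and 2.84e-05, with 4.16% and 9.69% of genes called). The 3 GPD strains without other changes at SIR genes thus spanned 2.62 to 4.06 by array.

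The sir3-A2Q allele was placed behind the same GPD promoter as in pGPD-SIR3 yAT1254. The alanine it replaces is normally acetylated by the NatA complex, and the submitters' design text ties the mutant to the question of telomere clustering. Over the SIR3 gene pGPD-SIR3-A2Q fell by 3.42 relative to pGPD-SIR3 yAT1254, at 0.55 ± 0.27 against 3.97 ± 0.13 (SD, n = 2 each, limma adjusted p = 1.04e-07), with 9.13% of all genes called and 7.72% called lower. Against WT it stood 0.30 higher (95% interval -0.07 to 0.66), which did not pass (limma adjusted p = 0.329, 1.6% of genes called), but with quantile normalization it was 0.982 and passed (adjusted p = 0.025). All 11 coding probes of SIR3 were lower than in pGPD-SIR3 yAT1254, as were 8.49% of all probes. The GPD promoter in front of SIR3 went with a high Sir3 signal over the gene in the strains with the unmutated protein and not in the strain with sir3-A2Q. The level of the mutant protein was not analysed here.

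Release from NAM was compared with exponential growth in the same strain, yAT1254. Over SIR3 the level was 3.99 ± 0.37 after NAM release and 3.97 ± 0.13 in exponential growth (SD, n = 2 each), a difference of 0.02 (95% interval -0.34 to 0.39, limma adjusted p = 0.958, 8.24% of genes called). With quantile normalization the difference was 0.982 and passed (adjusted p = 0.0481). The dot1 strain was compared with the DOT1 strain under the same release. There SIR3 fell by 1.12 to 2.87 ± 0.22, against 3.99 ± 0.37 in NAM-release pGPD-SIR3 (SD, n = 2 each, limma adjusted p = 0.000136). In that comparison 51.2% of all genes were called, 23.3% lower and 27.9% higher, and the dot1 arrays had the wider probe spread given above. With each array divided by its own probe spread the SIR3 difference was -8.373 in units of that spread and still passed (adjusted p = 5.52e-05). With quantile normalization it was -0.332 on the log2 scale and did not pass (adjusted p = 0.383). Over SIR3 the 2 dot1 arrays and the 2 DOT1 arrays did not overlap, and the dot1 arrays were 2.62 above WT (limma adjusted p = 5.8e-08, 59.3% of genes called). NAM-release pGPD-SIR3 was 3.74 above WT (limma adjusted p = 1.02e-07, 19.7% of genes called).

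Adding the GPD promoter at SIR2 to a strain with GPD at SIR3 was compared with strains that had only 1 of the 2 promoters replaced. Over SIR3, pGPD-SIR2 pGPD-SIR3 stood at 2.78 ± 0.06 (SD, n = 2), against 0.20 in pGPD-SIR2, a difference of 2.58 (limma adjusted p = 1.31e-05, 10.6% of genes called). It fell by 1.19 relative to pGPD-SIR3 yAT1254 (limma adjusted p = 0.000741, 14.1% of genes called). That difference was -0.839 with slide as a fixed block (adjusted p = 0.497) and -0.422 with quantile normalization (adjusted p = 0.335), neither of which passed. Relative to pGPD-SIR3 yAT2476, whose genotype lists fewer other changes, the difference was -0.16 (95% interval -0.61 to 0.29, limma adjusted p = 0.688, 9.32% of genes called). The 2 GPD strains used here as partners differ in their other alleles. With the native SIR3 promoter, pGPD-SIR2 differed from WT over SIR3 by -0.05 (95% interval -0.50 to 0.40, limma adjusted p = 0.914, 2.93% of genes called).

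Within SIR3 the difference of pGPD-SIR3 yAT1254 from WT was largest early in the coding region and was not called just upstream of the start codon. It was 3.15 at +132, 4.53 at +434 and 4.66 at +699, then 3.87 at +1552, 2.80 at +2188 and 1.64 at +2808. The probe at +699 (chromosome 12, 1021523 to 1021581 in the authors' table, build not given in the sources used here) had a level of 4.33 and 4.52 in pGPD-SIR3 yAT1254, against 0.03 and -0.50 in WT. The first probe upstream, at -132, had 0.08 and 0.09 in pGPD-SIR3 yAT1254, against -0.21 and 1.03 in WT, a difference of -0.32 (limma adjusted p = 0.606). The first called probe thus lay at +132 and the first without a call at -132, on chromatin sheared to a mean of 500 bp. The WT arrays were far apart at this probe, and the value of pGPD-SIR2 pGPD-SIR3 replicate 2 is missing, so that group's fit rests on 1 array there. For the replaced strains the labels name the inserted promoter and NAT cassette at SIR3 but not where they join the native sequence. If they lie between these probes, the physical distance there is longer. Within 1 kb upstream of SIR3, 78 of 80 values were measured in the strains with a replaced promoter and 15 of 15 in those without.

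**Figure D2:**
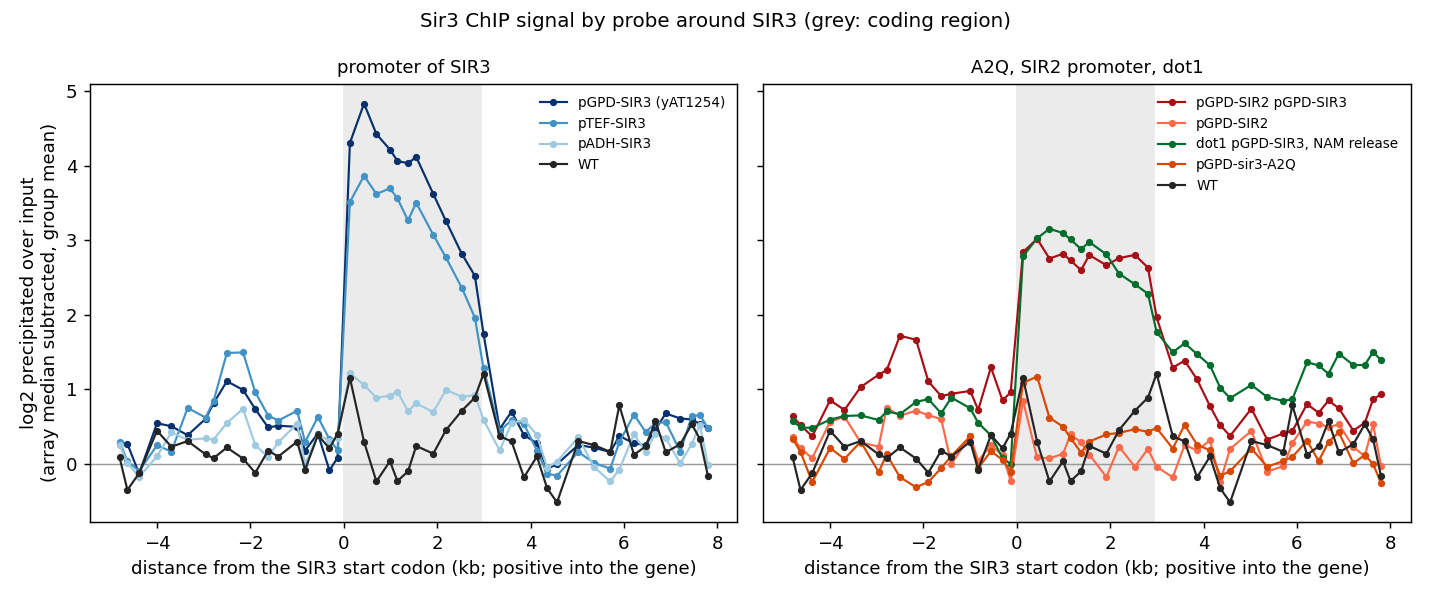
Log2 ratio (group mean) of each probe across the SIR3 locus against distance from the start codon in kb. Left, pGPD-SIR3 yAT1254, pTEF-SIR3, pADH-SIR3 and WT; right, pGPD-SIR2 pGPD-SIR3, pGPD-SIR2, NAM-release dot1 pGPD-SIR3, pGPD-SIR3-A2Q and WT. In the left panel pGPD-SIR3 yAT1254 and pTEF-SIR3 are high over the coding region, are not called above WT at -132 and are called again at -2158; in the right panel pGPD-SIR2 pGPD-SIR3 is called at 14 of 18 upstream probes.

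All 11 coding probes of SIR3 were called higher than WT in pTEF-SIR3, in the pGPD-SIR3 strains yAT2554, yAT1254 and yAT2476, in pGPD-SIR2 pGPD-SIR3 and in both NAM-release groups. Among all probes the share called higher was 8.52% in pTEF-SIR3, 4.96% in yAT2554, 6.88% in yAT1254 and 7.77% in yAT2476. It was 13.7% in pGPD-SIR2 pGPD-SIR3, 11.8% in NAM-release pGPD-SIR3 and 26.9% in NAM-release dot1 pGPD-SIR3. In pADH-SIR3, where 1.32% of all probes were called higher, 2 coding probes passed, at +699 (1.12 higher) and at +1150 (1.20 higher). No coding probe passed by limma's adjusted p in pGPD-SIR3-A2Q or pGPD-SIR2, where 5 and 3 of the 11 had an unadjusted p under 0.05. Those probes went in both directions. The probe at +2808 was 0.46 lower than WT in pGPD-SIR3-A2Q and 0.69 lower in pGPD-SIR2, and that at +2528 was 0.75 lower in pGPD-SIR2. Among all probes 1.3% and 2.81% were called higher in those groups. The 2 largest A2Q differences were 0.87 at +434 and 0.86 at +699.

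Whether a difference leaned to the start-codon side was measured as the mean of the 6 probes nearer the start codon minus the mean of the 4 probes nearer the stop codon on each array. This lean was 0.91 and 0.81 in pGPD-SIR3 yAT1254, 0.96 in yAT2476 and 0.70 in yAT2554, against -0.14 and -0.32 in WT. The groups with a low level over SIR3 also lay above both WT arrays, although none of them passed. Their lean was 0.23 and 0.28 in pGPD-SIR3-A2Q, 0.06 and 0.16 in pADH-SIR3 and 0.27 in pGPD-SIR2. It was 0.99 and 0.33 in pTEF-SIR3 and 0.48 and 0.95 in NAM-release pGPD-SIR3, so these pairs of arrays agreed less well. In pGPD-SIR2 pGPD-SIR3 it was 0.02 and 0.05, below every other GPD array. The lean exceeded WT by 1.09 in yAT1254 (limma adjusted p = 0.00331), where 1.14% of the 2192 genes tested this way were called. It exceeded WT by 0.89 in pTEF-SIR3 (limma adjusted p = 0.0101, 2.69% called) and by 1.19 in yAT2476 (limma adjusted p = 0.00483, 6.84% called). The yAT2554 lean of 0.93 over WT missed the threshold (limma adjusted p = 0.0538, 0.684% called). pGPD-SIR2 pGPD-SIR3 exceeded WT by 0.27 without passing (limma adjusted p = 0.449, 1.19% called), and fell by 0.82 relative to yAT1254 (limma adjusted p = 0.0428, 0.502% called). Relative to yAT2476 it differed by -0.93, which did not pass (limma adjusted p = 0.0524, 0.821% called). The NAM-release groups leaned more than WT by 0.95 with DOT1 and by 0.54 without it (limma adjusted p = 0.0108 and 0.0459), where 8.8% and 15.1% of genes were called. In WT itself the highest probes of the locus were those at the gene's ends, with 1.14 and 1.17 at +132, 0.91 and 0.87 at +2808 and 1.32 and 1.11 at +2994, just past the stop codon. At +2994, which is outside the gene level, pGPD-SIR2 was 1.25 and pGPD-SIR3-A2Q 0.73 lower than WT, and both were called. Each probe was compared only with itself in WT.

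**Figure D3:**
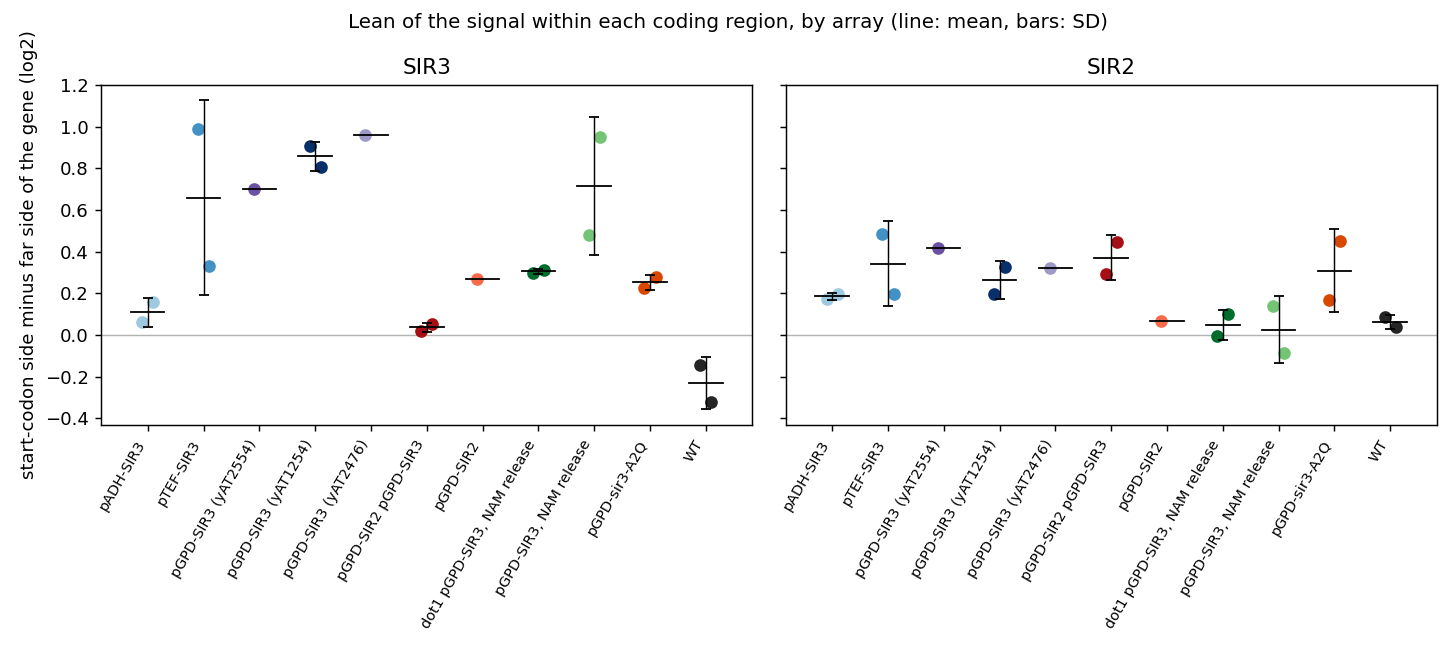
Mean of the start-codon-side probes minus mean of the far-side probes (log2) over SIR3 and SIR2 on every array, with group means and SD. Over SIR3 the pGPD-SIR3 yAT1254, yAT2476 and yAT2554 arrays lie between 0.70 and 0.96 and the WT arrays below 0; the pGPD-SIR2 pGPD-SIR3 arrays lie at 0.02 and 0.05.

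Beyond the stop codon the number of called probes differed by group, a difference that was not itself tested. Of the 19 downstream probes, 1 was called higher than WT in pTEF-SIR3, in yAT2554 and in yAT1254, and 3 were in yAT2476. By contrast 11 were called in pGPD-SIR2 pGPD-SIR3, 8 in NAM-release pGPD-SIR3 and 18 in NAM-release dot1 pGPD-SIR3. At +3860, inside RPS1A, which encodes a protein of the small ribosomal subunit, pGPD-SIR2 pGPD-SIR3 had 1.13 and 1.14, against 0.21 and -0.57 in WT, a difference of 1.31. This was not particular to that group. At the same probe yAT2476 (1 array) had 1.19, a difference of 1.37 from WT. NAM-release pGPD-SIR3 had 1.25 and 0.98 there, and NAM-release dot1 pGPD-SIR3 had 1.22 and 1.73. RPS1A had no gene level of its own. Relative to yAT1254, pGPD-SIR2 pGPD-SIR3 was higher at 7 upstream and 3 downstream probes and lower at 8 coding probes of SIR3, where 6.85% of all probes were higher and 4.11% lower. After NAM release 4 downstream probes were higher than in the same strain in exponential growth (3.36% of all probes were), and no coding or upstream probe was.

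The dot1 result around SIR3 depended on scaling. Relative to NAM-release pGPD-SIR3, 10 of 11 coding probes were lower and 11 of 19 downstream probes higher in NAM-release dot1 pGPD-SIR3, where 16.7% and 20.5% of all probes were. When every array was divided by its own probe spread, 11 coding probes were lower, and 0 downstream probes were higher and 3 lower, where 12% of all probes were lower and 11.9% higher. Relative to WT, the dot1 strain had 18 downstream and 12 upstream probes called higher around SIR3, where 26.9% of all probes were. After that division the counts were 10 and 2, where 16.7% of all probes were called higher.

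Upstream of SIR3 lies ECM7, which encodes a membrane protein and is read from the other strand, followed by GMC2, which encodes a meiotic chromosome protein. In pTEF-SIR3, yAT2554, yAT1254, pGPD-SIR2 pGPD-SIR3 and NAM-release pGPD-SIR3 the largest called upstream difference from WT was at -2158, in GMC2. In pGPD-SIR2 pGPD-SIR3, where 13.7% of all probes were called higher, 14 of 18 upstream probes were called, ECM7 among them with 0.91 at -555. The value of replicate 2 is missing at -555, so that difference rests on 1 array of the group. At -2158 the level was 1.39 and 1.60 in pTEF-SIR3, 1.26 in yAT2554, 1.13 and 0.85 in yAT1254 and 1.54 and 1.79 in pGPD-SIR2 pGPD-SIR3, against -0.18 and 0.32 in WT. Those 4 groups and both NAM-release groups passed at this probe, and their arrays lay above WT. The probe had -0.18 and -0.45 in pGPD-SIR3-A2Q, which did not pass (limma adjusted p = 0.215), and 0.62 in yAT2476 (limma adjusted p = 0.113). With the native SIR3 promoter, pGPD-SIR2 (1 array) had 0.72 there, which did not pass. At the adjacent probe, -1896, pGPD-SIR2 was 0.77 above WT and was called, so an upstream call also occurred without a replaced SIR3 promoter. Across ECM7 the gene level was 0.76 and 1.01 in pGPD-SIR2 pGPD-SIR3, against 0.09 and 0.13 in WT, a difference of 0.78 (limma adjusted p = 0.000495). ECM7 was also higher than WT in pTEF-SIR3 by 0.42, in NAM-release pGPD-SIR3 by 0.56 and in NAM-release dot1 pGPD-SIR3 by 0.62 (limma adjusted p = 0.0411, 0.00681 and 0.000597). The ECM7 call in pTEF-SIR3 was lost without any 1 of the 4 arrays compared, and that in NAM-release pGPD-SIR3 without its replicate 1 (0.483 higher, adjusted p = 0.0696). NGK1, which encodes a sugar kinase, was 0.54 higher and VMA6, a subunit of the vacuolar proton pump, 0.48 higher than WT in pGPD-SIR2 pGPD-SIR3 (limma adjusted p = 0.00265 and 0.0212). The VMA6 call was lost without WT replicate 1 (adjusted p = 0.062) and without either pGPD-SIR2 pGPD-SIR3 array (0.538 higher, adjusted p = 0.0505, and 0.414 higher, adjusted p = 0.131). On the downstream side SEC39, which encodes a vesicle tethering protein, and MRPL4, a mitochondrial ribosomal protein, were called in NAM-release dot1 pGPD-SIR3 and in no other comparison with WT. There SEC39 was 0.75 and MRPL4 1.01 higher than WT (limma adjusted p = 0.000455 and 0.000906), in the comparison that called 59.3% of all genes.

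Sir3 signal over the SIR2 gene was called higher than in WT in 3 groups. The level was 2.28 and 2.02 in pGPD-SIR2 pGPD-SIR3, 1.01 in pGPD-SIR2 and 0.80 and 0.93 in NAM-release dot1 pGPD-SIR3, against -0.11 and 0.06 in WT. All other arrays lay between -0.16 and 0.26, among them pGPD-SIR3 yAT1254 at 0.12 and 0.26, where the SIR3 gene itself was near 4. Over SIR2, pGPD-SIR2 pGPD-SIR3 was 2.18 higher than WT (4.52-fold, SE 0.12, limma adjusted p = 3.03e-07), where 19.3% of genes were called. pGPD-SIR2 alone was 1.04 higher (2.05-fold, SE 0.15, limma adjusted p = 0.00398). With the first deposit alone its size was the same and it no longer passed (adjusted p = 0.0895). The pGPD-SIR2 pGPD-SIR3 level was 1.14 above pGPD-SIR2 (limma adjusted p = 0.000435), but 0.107 and not called with quantile normalization (adjusted p = 0.73). It was 1.96 above pGPD-SIR3 yAT1254 (limma adjusted p = 1.3e-06) and 2.31 above yAT2476 (limma adjusted p = 2.48e-06). None of the arrays of these groups overlapped over SIR2.

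Strains with the native SIR2 promoter and a replaced SIR3 promoter gave no call for the SIR2 gene in exponential growth. Relative to WT the differences were -0.02 in pADH-SIR3, 0.11 in pTEF-SIR3, 0.19 in yAT2554, 0.22 in yAT1254, -0.14 in yAT2476 and 0.01 in pGPD-SIR3-A2Q (limma adjusted p between 0.345 and 0.978). The 95% interval for yAT1254, -0.04 to 0.48, leaves out a difference as large as that of pGPD-SIR2. At the single probe at +426, yAT1254 had 0.25 and 0.42 and pTEF-SIR3 0.24 and 0.39, against -0.10 and -0.11 in WT, and both passed there (limma adjusted p = 0.043 and 0.0444), but not after dividing arrays by their probe spread. After NAM release SIR2 was 0.22 above WT (limma adjusted p = 0.206) and 0.01 above the same strain in exponential growth (limma adjusted p = 0.987). In NAM-release dot1 pGPD-SIR3 it was 0.89 above WT (limma adjusted p = 4.39e-05) and 0.67 above NAM-release pGPD-SIR3 (limma adjusted p = 0.000551). There 32.1% and 27.9% of all genes were called higher, and after dividing each array by its probe spread the difference from NAM-release pGPD-SIR3 did not pass (adjusted p = 0.098), nor did it with quantile normalization (0.254, adjusted p = 0.164). Relative to its DOT1 partner the dot1 strain was thus lower over SIR3 and higher over SIR2.

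The difference from WT over SIR2 was called at every coding probe in pGPD-SIR2 pGPD-SIR3 and in pGPD-SIR2. In pGPD-SIR2 pGPD-SIR3 the 7 coding probes had a median of 2.10 above WT, with the highest, 2.42, at +426 (chromosome 4, 377990 to 378049 in the authors' table), where the level was 2.37 and 2.27, against -0.10 and -0.11 in WT. In pGPD-SIR2 they were between 0.85 and 1.42 above WT, with the highest at +30. The start-codon-side value, here over 2 and 3 probes, passed in no comparison over SIR2. It leaves out the end probes at +30 and +1618, so it does not show a flat profile. In pGPD-SIR2 the level was 1.55 at +30 and 0.52 at +1394. Upstream, unlike at SIR3, the first probe was also higher, at 1.52 and 1.55 in pGPD-SIR2 pGPD-SIR3, against 0.07 and 0.01 in WT at -152. The difference there was 1.49 (limma adjusted p = 1.28e-05), while in pGPD-SIR2 it was 0.47 and did not pass (limma adjusted p = 0.146).

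**Figure D4:**
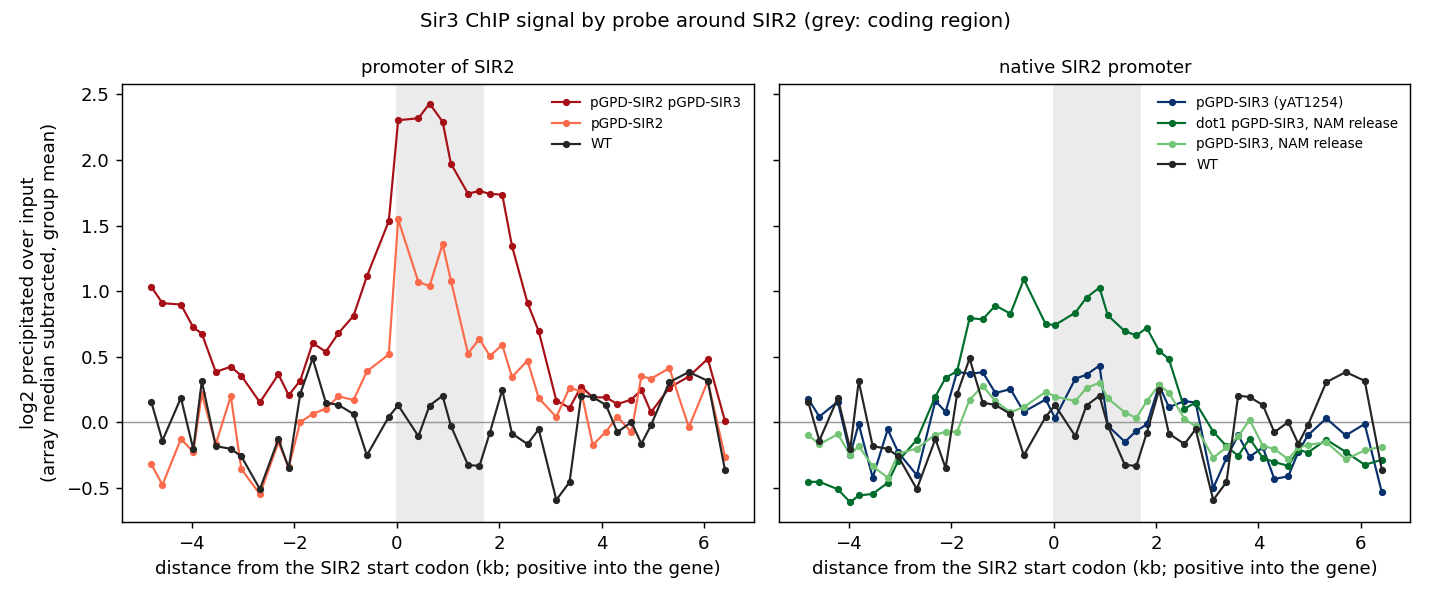
Log2 ratio (group mean) of each probe across the SIR2 locus against distance from the start codon in kb. Left, pGPD-SIR2 pGPD-SIR3, pGPD-SIR2 and WT; right, pGPD-SIR3 yAT1254, NAM-release dot1 pGPD-SIR3, NAM-release pGPD-SIR3 and WT. In pGPD-SIR2 pGPD-SIR3 the signal stays near 2 across the gene and extends beyond both ends.

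Around SIR2 the calls reached into the neighbouring genes in pGPD-SIR2 pGPD-SIR3. In pGPD-SIR2 pGPD-SIR3, 12 of 18 upstream probes, 7 of 7 coding probes and 7 of 18 downstream probes were called higher than WT, where 13.7% of all probes were, whereas in pGPD-SIR2 the counts were 1, 7 and 1, where 2.81% of all probes were called higher. PRP11, which encodes a splicing factor and lies next to the SIR2 stop codon, had 1.26 and 1.00 in pGPD-SIR2 pGPD-SIR3, against -0.01 and -0.24 in WT (1.25 higher, limma adjusted p = 6.43e-06). In pGPD-SIR2 it had 0.41, which just missed the threshold (limma adjusted p = 0.0502). NAT1, which encodes a subunit of the NatA acetyltransferase and lies upstream of SIR2, was 0.55 above WT in pGPD-SIR2 pGPD-SIR3 (limma adjusted p = 0.000243). PRM7, a pheromone-regulated gene further upstream, was 0.85 above WT in the same group (limma adjusted p = 0.000726) and 0.57 below WT in NAM-release dot1 pGPD-SIR3, at -0.44 and -0.56 against 0.16 and -0.02 in WT (limma adjusted p = 0.00289). In NAM-release dot1 pGPD-SIR3 the SIR2 locus had 7 upstream, 7 coding and 3 downstream probes called higher than WT, where 26.9% of all probes were. After dividing arrays by their probe spread the counts were 3 of each, where 16.7% of all probes were. There NAT1 was 0.60 above WT (limma adjusted p = 2.51e-05), so the 2 upstream neighbours moved apart there and together in pGPD-SIR2 pGPD-SIR3.

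The unbroken run of probes called higher than WT through each gene gave one length per group, a measure added after the data were seen. Through SIR3 it held 11 probes over 2.68 kb, from +132 to +2808, in pTEF-SIR3, yAT2554, yAT1254 and yAT2476 alike. It held 18 probes over 4.44 kb, to +4568 in SEC39 (where WT replicate 1 is missing), in pGPD-SIR2 pGPD-SIR3 and in NAM-release pGPD-SIR3, and 21 probes over 5.58 kb in NAM-release dot1 pGPD-SIR3. No run crossed the SIR3 start codon, since the probe at -132 was called higher in none of the 10 groups. Through SIR2 the run held 7 probes over 1.59 kb in pGPD-SIR2, 19 probes over 4.76 kb in pGPD-SIR2 pGPD-SIR3, from -1382 in NAT1 to +3376 in MTF2, whose product acts on mitochondrial messenger RNA, and 13 probes over 3.2 kb in NAM-release dot1 pGPD-SIR3. A run ends at the first probe that misses the threshold, so these lengths follow the power of each comparison and the difference in length was not tested.

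**Figure D5:**
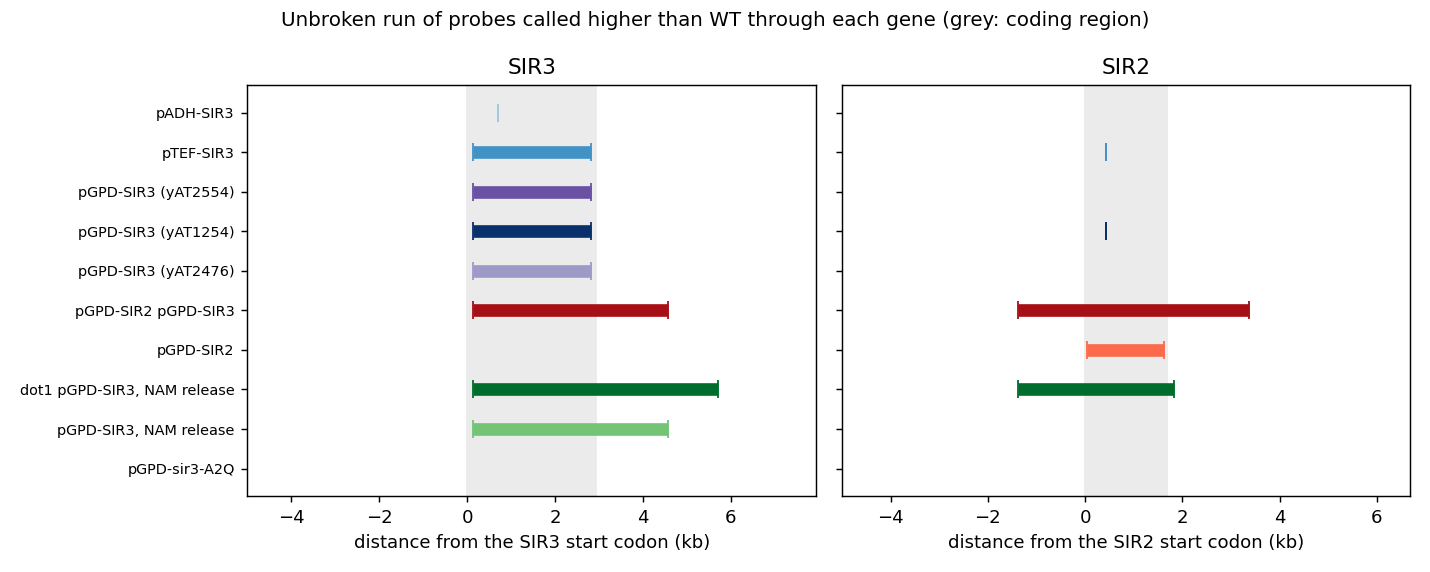
Unbroken run of probes called higher than WT (limma adjusted p under 0.05) through SIR3 and SIR2 in each group, against distance from the start codon in kb. The SIR3 run is 2.68 kb in 4 groups, 4.44 kb in pGPD-SIR2 pGPD-SIR3 and NAM-release pGPD-SIR3 and 5.58 kb in NAM-release dot1 pGPD-SIR3; the SIR2 run is 4.76 kb in pGPD-SIR2 pGPD-SIR3.

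How the SIR3 promoter change read out with and without the SIR2 promoter change was tested as 1 contrast, pGPD-SIR2 pGPD-SIR3 minus pGPD-SIR2 against pGPD-SIR3 yAT1254 minus WT, chosen after the data were seen. Over SIR3 the increase was 2.58 with GPD at SIR2 and 3.72 without, a difference of -1.14 (SE 0.27, limma adjusted p = 0.0412, 2.83% of genes called). Over SIR2 it was 1.14 with and 0.22 without, a difference of 0.92 (SE 0.19, limma adjusted p = 0.0213). The lean of SIR3 differed by -1.32 (SE 0.28, limma adjusted p = 0.0414, 0.502% called). The lean of SIR3 changed by -0.23 with GPD at SIR2 and by 1.09 without. The pGPD-SIR2 array itself had a lean of 0.27, against -0.14 and -0.32 on the WT arrays. The calls for the levels over SIR3 and SIR2 were lost under several other settings, given in the closing section. The lean contrast was not refitted under most of those settings. The contrast rests on 1 pGPD-SIR2 array and on strains with other allele differences.

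Each gene was then compared between all strains in which its own promoter was replaced and all others. Over SIR3, the 9 groups with a replaced promoter averaged 2.66 and the 2 without 0.22, a difference of 2.44 (SE 0.11, limma adjusted p = 1.32e-07, 15.2% of genes called). Over SIR2, the 2 groups with a replaced promoter averaged 1.58 and the 9 without 0.14, a difference of 1.44 (SE 0.08, limma adjusted p = 5.02e-07, 20.3% of genes called). An exact two-sided permutation test over arrays gave p = 0.00413 for SIR3 (16 arrays against 3, ranges 0.35 to 4.25 against 0.14 to 0.36) and p = 0.00206 for SIR2 (3 arrays against 16, ranges 1.01 to 2.28 against -0.16 to 0.93). The SIR3 ranges overlapped at 1 array each, pGPD-SIR3-A2Q replicate 1 and WT replicate 1. The smallest p this design allows is 0.00206, and arrays of 1 strain are not separate strains. Taken by group means, both exact two-sided permutation tests gave p = 0.0364, the smallest that 11 groups allow. Each gene was also set against the other gene's promoter. SIR2 differed by -0.11 between strains with a replaced and a native SIR3 promoter (limma adjusted p = 0.361), but by -0.452 with quantile normalization, which passed (adjusted p = 0.00872). SIR3 was 0.89 lower in strains with a replaced SIR2 promoter (limma adjusted p = 0.000378), but 1 of those groups has the native SIR3 promoter, and with the first deposit alone the difference was -0.58 and did not pass (adjusted p = 0.0632).

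SIR3 ranked high among the 3662 genes over 50 kb from a chromosome end. Its level ranked first on both NAM-release pGPD-SIR3 arrays, 4 and 2 in pGPD-SIR3 yAT1254, 3 on both pGPD-SIR2 pGPD-SIR3 arrays and 3 and 7 in pTEF-SIR3, against 415 and 970 in WT. It ranked 27 and 57 in pADH-SIR3 and 198 and 81 in pGPD-SIR3-A2Q, between those extremes. Among all 4065 genes measured, those near chromosome ends included, more genes lay above SIR3. There its level ranked 21 and 23 in NAM-release pGPD-SIR3, 51 and 41 in yAT1254, 72 and 45 in pGPD-SIR2 pGPD-SIR3 and 56 and 52 in pTEF-SIR3. By the size of the difference from WT, SIR3 was first of the 3662 genes in pTEF-SIR3, in the 3 pGPD-SIR3 strains and in NAM-release pGPD-SIR3. Of all 4065 genes it was first only in NAM-release pGPD-SIR3, and ranked 37 in pTEF-SIR3, 49 in yAT2554, 29 in yAT1254 and 34 in yAT2476. Among the 3662 genes SIR2 ranked 24 in pGPD-SIR2 and 7 and 15 in pGPD-SIR2 pGPD-SIR3. It ranked only 465 and 403 in NAM-release dot1 pGPD-SIR3, against 2641 and 1397 in WT. By difference from WT it was 2 in pGPD-SIR2, 5 in pGPD-SIR2 pGPD-SIR3 and 346 in NAM-release dot1 pGPD-SIR3.

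In order of group means over SIR3, NAM-release pGPD-SIR3 (3.99) and pGPD-SIR3 yAT1254 (3.97) came first, followed by pTEF-SIR3 (3.32), yAT2476 (2.94), NAM-release dot1 (2.87), pGPD-SIR2 pGPD-SIR3 (2.78) and yAT2554 (2.62). Among the last 4 of these only pGPD-SIR2 pGPD-SIR3 and yAT2476 were compared, and their difference did not pass. pADH-SIR3 (0.92), pGPD-SIR3-A2Q (0.55), WT (0.25) and pGPD-SIR2 (0.20) closed the order, where pADH-SIR3, pGPD-SIR3-A2Q and pGPD-SIR2 did not pass against WT.

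Some genes shared these patterns across the 11 group means. The 5 closest to SIR3 were PMA1 (Pearson's r = 0.955), the plasma membrane proton pump, EGT2 (0.948), a cell wall protein of mother and daughter separation, CDC19 (0.946), the pyruvate kinase, SPO75 (0.944), a sporulation gene, and YPL199C (0.91). Their group means moved less than those of SIR3, from 0.48 to 1.77 for PMA1 and from 0.86 to 2.31 for CDC19. Closest to SIR2 were ADE2 (0.968), of adenine synthesis, its neighbour PRP11 (0.949), the mating gene FUS1 (0.895), NGK1 (0.892), which lies near SIR3, and BUD8 (0.883), which marks bud sites. ADE2 had 0.90 in pGPD-SIR2 and 2.83 and 2.23 in pGPD-SIR2 pGPD-SIR3, against -0.23 and 0.06 in WT, and those are the 2 groups with RDN1::ADE2. SIR3 and SIR2 themselves had a correlation of 0.057. These correlations rest on 11 group means from shared arrays and carry no test.

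Other genes of the silencing pathway gave a background for the SIR loci. Of 26 such genes 24 were measured. SIR4, the third SIR complex gene, kept its own promoter in every strain and its group means lay between -0.37 and -0.06 in all 11 groups, with no call against WT. The list had 0 genes called against WT in pADH-SIR3, yAT2554, yAT1254 and pGPD-SIR3-A2Q, by limma's adjusted p, and 2, 3, 4 and 4 with an unadjusted p under 0.05, where 0.861%, 4.16%, 7.38% and 1.6% of all genes were called. In pGPD-SIR2 1 gene was lower, HST1 (2.93% of all genes called), and in yAT2476 1 was higher, SAS5 (9.69%). In NAM-release pGPD-SIR3 3 were higher and 2 lower, where 19.7% of all genes were called. In pTEF-SIR3, where 8.66% were called, 2 were higher, the deacetylase gene HST2 by 0.66 and SAS5, of the SAS acetyltransferase, by 0.44 (limma adjusted p = 0.00405 and 0.049). In pGPD-SIR2 pGPD-SIR3 4 were higher and 3 lower, where 19.3% of all genes were called. YKU80, of the telomere-binding Ku complex, was 0.63 higher (limma adjusted p = 0.00698), and without WT replicate 1 it was 0.361 higher (adjusted p = 0.0289). In NAM-release dot1 pGPD-SIR3 10 were higher and 6 lower, where 59.3% of all genes were called. Unlike SIR4, the SIR1 gene was among those called there, although no strain lists a change at SIR1. ABF1, BRE1 and NET1 were called there too. The lack of a call at SIR4 thus does not extend to every silencing gene, and a call in this group is not particular to SIR2.

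Many of these calls were lost when the fit was repeated without each array in turn, a check added after the data were seen. The share of all called genes passing every such refit is not given here. The counts below thus cannot set the list apart from other genes. Of the 7 calls in pGPD-SIR2 pGPD-SIR3, 2 passed in every such refit, YKU80 and NAT1. Those lost included ARD1, the catalytic NatA subunit, which was 0.63 higher with all arrays (limma adjusted p = 0.0473), 1.06 higher without WT replicate 1 and 0.199 higher without WT replicate 2 (adjusted p = 0.283). ORC1, the paralog of SIR3, and HST1, the paralog of SIR2, fell by 0.25 and by 0.27 in that group (limma adjusted p = 0.0339 and 0.0153). Both calls were lost without either of its arrays. The differences nevertheless stayed close in size, at -0.283 and -0.215 for ORC1 and -0.286 and -0.25 for HST1. Of the 5 calls in NAM-release pGPD-SIR3 1 passed in every refit, SAS5, and of the 16 in NAM-release dot1 pGPD-SIR3 12 did. Neither call in pTEF-SIR3 did, with HST2 0.523 higher without pTEF-SIR3 replicate 2 (adjusted p = 0.0678) and SAS5 0.247 higher without WT replicate 1 (adjusted p = 0.179). The HST1 call in pGPD-SIR2, which has 1 array, was lost without WT replicate 1 (adjusted p = 0.0569).

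The median difference of the list from WT was between -0.04 and 0.20 over the 10 groups, against -0.03 to 0.04 for all genes. Of the 6 genes that supply the inserted promoters, close paralogs included, 2 were measured, and in pGPD-SIR2 pGPD-SIR3 TDH3, whose promoter is GPD, was 1.00 higher and ADH1 0.63 higher than WT (limma adjusted p = 0.00706 and 0.0382). Without WT replicate 2 ADH1 was 0.385 higher and did not pass (adjusted p = 0.197), nor did it without either pGPD-SIR2 pGPD-SIR3 array (adjusted p = 0.11 and 0.148). DOT1 had 0.06 and -0.37 on the NAM-release dot1 arrays, against -0.17 and 0.04 on the NAM-release pGPD-SIR3 arrays, but a ratio of precipitated to extract DNA is no check of a deletion, because both channels lose the sequence.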

How the data were processed

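Sir3 chromatin immunoprecipitation was measured on 19 arrays of 2 colours, with precipitated DNA in Cy5 and whole cell extract in Cy3 per the labels, after random-primer and PCR amplification. The authors deposited per array a linear ratio, a rescaled ratio with missing probes filled and a score, which the values show to be the ratio minus its mean over its SD. The score was not used, and the filled ratio was an alternative. Scanner, background correction and genome build are not stated in the labels or headers.

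Ratios at or below 0 (19 on 5 arrays) were set to missing and the log2 of the deposited ratio was centred on each array's median (median ratios 0.0292 to 0.942). Probes were assigned to genes with RefSeq R64 coordinates. The probe and R64 positions matched best at a shift of 50 bp on chromosome 4 and 25 bp on chromosome 12, in steps of 25 bp, so distances carry such an error. A gene needed 2 probes at least 100 bp inside its coding region (450 bp on the upper side on chromosomes 10 and 11), measured on all arrays.

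limma 3.58.1 (R 4.3.3) was fitted over all 19 arrays with 1 mean per group, separately over all genes, all probes and all genes with probes on both sides, with Benjamini-Hochberg adjustment per comparison and a threshold of 0.05 (8 residual and 4.34 prior degrees of freedom for genes). Tested on simulated data of 4065 genes, it called 95 of 100 genes changed by log2 1, 99 of 100 changed by log2 2 and 3 unchanged genes. Permutation tests were exact. Python 3.11.15 with numpy 2.4.6, pandas 2.3.3, scipy 1.17.1 and matplotlib 3.10.9 did the rest.

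Genes named are SIR3, SIR2, the genes in their 5 kb flanks, the 5 genes most like each in group means, and called members or largest differences of lists of silencing genes, promoter donors, altered loci, paralogs (ORC1 and HST1) and bound controls. HMRA1 and YFR057W, the bound controls, had no gene level under these filters. The members and lists were chosen with earlier results of these data known.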

Additional observations from a re-analysis of the deposited data

Results flagged for a closer look

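For 3 measures, the contrast between the effect of pGPD-SIR3 with and without pGPD-SIR2 passed the threshold by limma as a test of the difference itself. Over the SIR2 gene the effect was 0.921 larger with pGPD-SIR2 (adjusted p = 0.0213), and over the SIR3 gene it differed by -1.14 (adjusted p = 0.0412). The lean of the SIR3 signal to the start-codon side differed by -1.323 (adjusted p = 0.0414). The contrast was added after the data were seen and uses a single pGPD-SIR2 array. No group had the 4 arrays needed to look for an array apart from the others.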

How the results depend on the processing

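Of 785 recomputed values for 57 results at SIR3 and SIR2, 749 kept their direction and side of the threshold, 31 lost and 4 gained a call, and 1 reversed; where not stated below, the cause was not tested. Quantile normalization, which gives every array the same distribution, moved most. Over SIR2 it gave 0.254 for NAM-release dot1 over its DOT1 partner (adjusted p = 0.164), 0.107 for pGPD-SIR2 pGPD-SIR3 over pGPD-SIR2 (adjusted p = 0.73), -0.452 for SIR3 promoter replaced over native, now called, and -0.102 for the added contrast, which reversed. Over SIR3 it gave -0.332 for dot1 over its partner, 0.982 for NAM-release pGPD-SIR3 over yAT1254 and 0.982 for A2Q over WT, both now called, -0.422 for pGPD-SIR2 pGPD-SIR3 over yAT1254, 0.715 for pTEF-SIR3 over pADH-SIR3 and -0.263 for the added contrast. Dividing arrays by their probe spread gave 0.932 over SIR2 for dot1 over its partner (adjusted p = 0.098) and 2.586 over SIR2 and -4.088 over SIR3 for the added contrast, none called. With only the groups compared, which leaves fewer arrays, pGPD-SIR2 over WT was 1.039 over SIR2 (adjusted p = 0.944) and the added contrast 0.921 over SIR2 and -1.14 over SIR3. The first deposit alone gave 1.039, 1.049 and -1.096 for the same values, and the slide as a random block, chosen after seeing the data, gave 1.031, 1.023 and -1.022, none called. SIR2 promoter replaced over native at SIR3 lost its call at -0.575 in the first deposit, -0.03 in the later one and -0.562 with the random slide block. The SIR3 contrast also lost it at -0.964 with any probe centred in the gene, -1.111 with deposit as a block and -1.14 with a variance trend, and pGPD-SIR2 pGPD-SIR3 over yAT1254 at -0.839 with slide as a fixed block, which leaves few degrees of freedom. Leaving out 1 array at a time gave 0.562 to 0.775 for pADH-SIR3 over WT at SIR3 (called only without WT replicate 1), 0.792 to 1.049 for the SIR2 contrast (lost without yAT1254 replicate 1) and -1.247 to -1.033 for the SIR3 contrast (kept only without WT replicate 1). Replicate numbers do not pair the arrays (correlations of deviations -0.34 to 0.64, 10 of 28 over 0.1). With the replicate block no SIR3 or SIR2 call changed, SIR3 replaced over native being 2.42 and SIR2 replaced over native 1.446, while genes called for pGPD-SIR2 over WT numbered 59 with the block and 119 without.

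Counts of genes called moved by over 1.5 times under several settings. Without WT replicate 1 713 genes were called for pTEF-SIR3 over WT (352 with it), 816 for yAT1254 (300), 297 for pADH-SIR3 (35), 713 for A2Q (65), 308 for pGPD-SIR2 (119), 329 for yAT2554 (169), 1041 for SIR3 replaced over native (616) and 458 for the added contrast (115). With only the groups compared, 122 were called for pTEF-SIR3, 201 for pGPD-SIR2 pGPD-SIR3 (783 in the full fit), 196 for NAM-release pGPD-SIR3 (801), 131 for pGPD-SIR2 pGPD-SIR3 over pGPD-SIR2 (431), 62 for yAT2476 (394), 81 for yAT2554 and 1 for the added contrast. The first deposit alone gave 0 for pGPD-SIR2, 92 for SIR2 replaced over native (824) and 153 for SIR3 replaced over native. Slide as a fixed block gave 97 for yAT1254, 39 for pGPD-SIR2 pGPD-SIR3 over yAT1254 (574), 203 for A2Q over yAT1254 (371), 9 for A2Q over WT and 0 for yAT1254 over pTEF-SIR3 (19). Quantile normalization gave 1489 for dot1 over WT (2412), 1078 for dot1 over its partner (2082) and 52 for pTEF-SIR3 over pADH-SIR3 (149). Without NAM-release replicate 1, 22 were called for NAM release over yAT1254 (335), and with only the groups compared 657. The largest count for A2Q over yAT1254 was 898, with quantile normalization, and the smallest for pGPD-SIR2 pGPD-SIR3 over yAT2476 was 85, with the random slide block (379).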
